A study of Homo sapiens with 6 samples.

Results

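The DNAJ co-chaperones are the proteins with a J domain whose genes carry the symbols DNAJA, DNAJB or DNAJC and a number. Members were taken by symbol alone, as the probe sets that the platform annotation gives exactly 1 symbol of this form, which were 108 of 54675 probe sets on the array and covered 41 genes. Their transcript levels were compared between 2 human lung adenocarcinoma cell lines that both descend from the parental line CL1. CL1-0 is labelled poorly invasive and CL1-5 highly invasive, and both were grown in the same serum-supplemented RPMI medium. Each line was measured in 3 biological repeats, with the total RNA of each on a one-colour array of its own (6 arrays), so that a line stands for 1 subline and n = 3 arrays per line throughout.

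A J domain binds HSP70 and stimulates its ATPase activity, which makes HSP70 close on the unfolded or folded client that the co-chaperone has brought to it. Class A proteins keep the full layout of bacterial DnaJ, class B proteins keep its glycine- and phenylalanine-rich stretch but lack the zinc-binding region, and class C proteins share only the J domain. Because each J-protein works at its own place in the cell, the family directs a few HSP70s to cytosolic folding, the endoplasmic reticulum, mitochondrial import, vesicle uncoating, the ribosome and the spliceosome. DNAJB4, also called HLJ1, is known from work on lung cancer cell lines as a gene whose loss goes with invasive behaviour.

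Values are probe set signals as the authors deposited them, and fold changes are differences in log2(signal + constant), CL1-5 minus CL1-0, a scale that understates the change of dim genes. Array medians lay between 30.2 and 30.9 units, and arrays of 1 line correlated over genes at 0.989 or more, those of different lines at 0.866 or less. RNA quality was read from the log2 ratio of 3′ to 5′ signal of ACTB controls, which ran from 0.44 to 1.17 in CL1-0 and from 0.31 to 0.91 in CL1-5 (exact two-sided permutation p = 0.5, with 0.1 the smallest that 3 against 3 can give), and its part in the results was not tested. Of 8 markers of lung adenocarcinoma and epithelium fixed for this comparison, the keratins KRT8 (a mean of 49.4 units in CL1-0 and 555 in CL1-5) and KRT18 (46.5 and 4222) were called higher in CL1-5, and EPCAM (29.3 and 10.3) was called lower. Both keratins were read through probe sets with suffix x, the kind that can cross-hybridise. KRT19 lay at or under the 40th percentile of every array in both lines, and NKX2-1, NAPSA, SFTPB and CDH1 exceeded it on all 6 arrays without a call. Of the markers of other cell types, 2 of 3 for leukocytes (PTPRC and CD14), 1 of 4 for fibroblasts (LUM) and 1 of 3 for endothelium (CDH5) lay there in both lines. CD3E, COL1A1, COL1A2 and DCN exceeded that percentile on all 6 arrays and VWF on 4, none of them called, and PECAM1 of endothelium was called higher in CL1-5 (49.8 and 115 units); the part of these levels in the results was not tested.

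Of the 41 DNAJ genes, 37 passed the filter on low signals and were tested, each through 1 probe set, within a fit over 14828 genes. DNAJB7, DNAJB8, DNAJC12 and DNAJC28 did not pass, as each of their probe sets exceeded the 40th percentile on at most 1 of 6 arrays. In the tested genes 11 were higher and 11 lower in CL1-5 at an adjusted p under 0.05 (limma, Benjamini-Hochberg over all genes tested), which is 59.5% of them, against 51.6% of all genes (23.3% higher and 28.3% lower). The share of members called was therefore near that of the array as a whole. Their median log2 fold change was -0.10, beside -0.03 over all genes, and the median absolute change was 0.46, beside 0.32. A change of at least 2-fold with a call was seen in 2 upward and 2 downward members, against 8.51% and 7.60% of all genes. The arrays of the lines did not overlap for 28 of the 37 members, against 58.8% of all genes. Repeats of the same number deviated together. With the repeat number as a block 13 members were higher and 17 lower, which is 81.1% of them, against 62.7% of all genes in the same fit (28.0% higher and 34.7% lower).

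**Figure D1:**
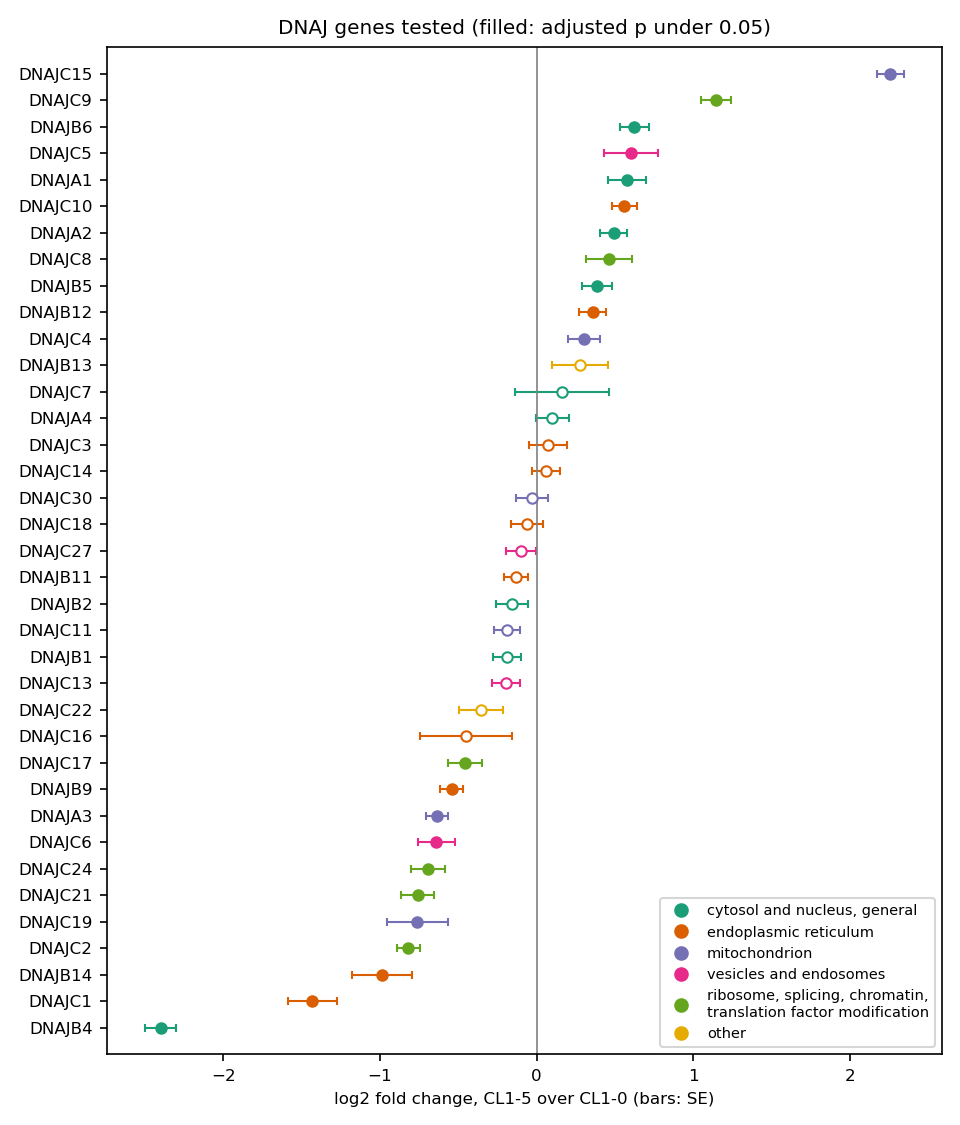
Log2 fold change of CL1-5 over CL1-0 (horizontal axis) for the 37 DNAJ genes tested, ordered by value, with bars of 1 standard error, n = 3 arrays per line; colour gives the cell compartment or role, and filled points passed an adjusted p of 0.05. DNAJB4 at -2.40 and DNAJC15 at 2.26 lie at the ends of the order, and 11 filled points lie on each side of 0.

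**Figure D2:**
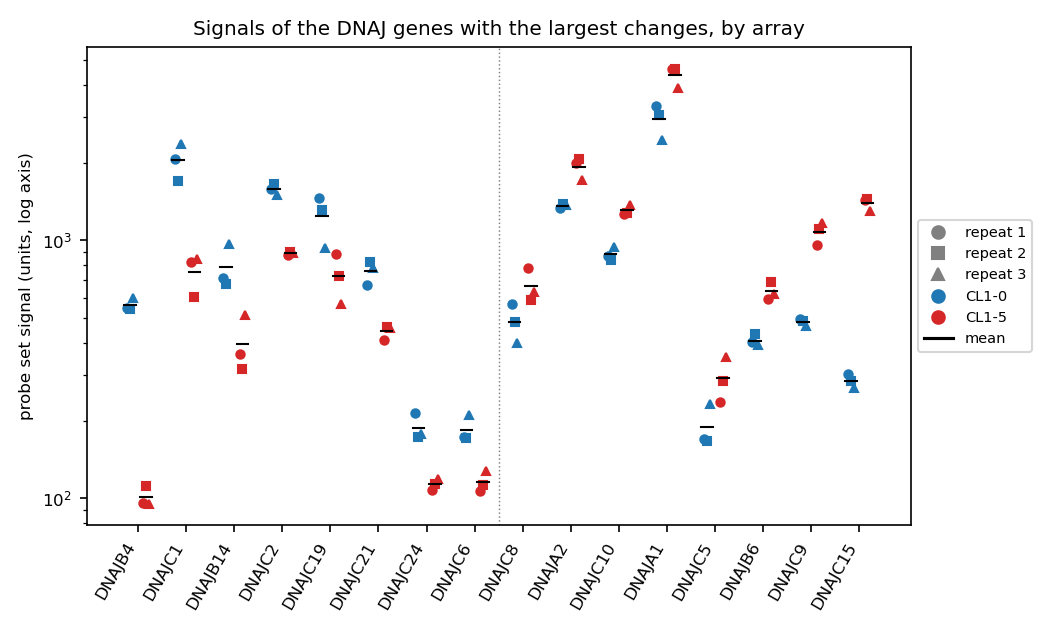
Probe set signal on each of the 6 arrays (vertical axis, log scale, units as deposited) for the 8 DNAJ genes with the largest decreases, left of the dotted line, and the 8 with the largest increases, right of it; marker shape gives the repeat number and black bars the mean of 3 arrays. The lines do not overlap for any of the 16 genes, and signals of different genes are not comparable in height.

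Among the members of cytosol and nucleus that fold many clients, 4 of 9 tested genes were higher in CL1-5 and 1 was lower, the lower one being DNAJB4. That is 55.6% called, near the 51.6% of all genes. DNAJB4, a class B partner of cytosolic HSP70, read 546, 540 and 598 units on the CL1-0 arrays and 95.9, 112 and 95.3 on the CL1-5 arrays. Every CL1-0 array was thus far above every CL1-5 array, and the mean signal was 5.56 times as high in CL1-0. The log2 fold change was -2.40 (SE 0.10, adjusted p = 1.4e-07), the largest decrease of the family. The other DNAJB4 probe set gave -2.22. The gene was already among those earlier work on CL1 sublines had named, so its fall is no independent evidence for that work.

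The stretch of 250 bases before the start of DNAJB4 is shown with those of DNAJC15, the member that rose most, and DNAJB6, because DNAJC15 and DNAJB6 alone among 34 members with a promoter entry held 1 of the 3 motifs searched. The motifs were a heat shock element of 3 units (GAANNTTCNNGAA), the endoplasmic reticulum stress element (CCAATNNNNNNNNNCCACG) and an AP-1-like pattern (TGANTCA), each on both strands. N is any base, so the AP-1-like pattern is looser than the usual AP-1 site, which has C or G in the middle. Sequences are from RefSeq, build GRCh38.p14, plus strand, at chr1:77978925-77979174 for DNAJB4, chr13:43023336-43023585 for DNAJC15 and chr7:157336754-157337003 for DNAJB6, and capitals mark a motif.
DNAJB4: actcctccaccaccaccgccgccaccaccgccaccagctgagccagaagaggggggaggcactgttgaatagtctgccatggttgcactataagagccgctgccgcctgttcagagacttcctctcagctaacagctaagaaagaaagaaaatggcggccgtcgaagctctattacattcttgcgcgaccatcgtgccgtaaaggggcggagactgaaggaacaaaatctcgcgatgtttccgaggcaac
DNAJC15: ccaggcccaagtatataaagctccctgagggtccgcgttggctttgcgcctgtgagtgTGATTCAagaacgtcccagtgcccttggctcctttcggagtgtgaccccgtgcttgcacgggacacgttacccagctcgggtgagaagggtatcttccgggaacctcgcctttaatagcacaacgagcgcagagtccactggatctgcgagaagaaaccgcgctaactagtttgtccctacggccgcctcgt
DNAJB6: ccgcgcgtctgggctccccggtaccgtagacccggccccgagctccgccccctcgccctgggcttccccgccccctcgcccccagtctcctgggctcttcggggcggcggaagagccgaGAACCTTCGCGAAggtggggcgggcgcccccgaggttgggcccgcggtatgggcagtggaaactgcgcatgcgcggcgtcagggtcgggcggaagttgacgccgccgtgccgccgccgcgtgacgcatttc
The AP-1-like letters of DNAJC15, TGATTCA, have T in the middle and so are not the usual AP-1 site. They end 186 bases before the start, and the heat shock letters of DNAJB6 end 119 bases before it. Over 27305 promoters of this length the heat shock element was found in 0.439%, the endoplasmic reticulum stress element in 0.0806% and the AP-1-like pattern in 6.6%. The member promoters held a median of 22 CpG dinucleotides, beside 11 over all promoters, and that of DNAJB4 held 16. All promoters here means every gene with an entry, including genes not tested, whereas the members were all tested genes. The difference in CpG is therefore not shown to be a trait of the family. A match describes letters only, and a window with no match says nothing about the factor.

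The cytosolic members that rose did so by less than 2-fold. DNAJB6, known as a suppressor of protein aggregation, read 402, 432 and 392 units in CL1-0 and 592, 692 and 621 in CL1-5, without overlap (0.63, SE 0.09, adjusted p = 4.1e-04). DNAJA1, a farnesylated class A protein, read 3328, 3064 and 2459 units in CL1-0 and 4620, 4638 and 3910 in CL1-5 (0.58, SE 0.12, adjusted p = 0.0031). Its other probe set was higher as well, at 0.82.

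DNAJA2, the close relative of DNAJA1, was the 1 member whose probe sets were called in opposite directions. The one used read 1336, 1384 and 1372 units in CL1-0 and 1996, 2074 and 1717 in CL1-5 (0.49, SE 0.09, adjusted p = 0.0012), whereas the other gave -0.24 (adjusted p = 0.043 over all probe sets). Averaged over both probe sets, the value was 0.12 and the call was lost (adjusted p = 0.20), so that the direction of DNAJA2 depends on the probe set read. DNAJB5 rose by 0.39 (SE 0.10), at a mean of 82.3 ± 2.51 units (SD) in CL1-0 and 110 ± 7.47 in CL1-5. The heat-inducible DNAJB1 averaged 536 ± 11.4 units in CL1-0 and 470 ± 37.3 in CL1-5 and did not pass (-0.19, adjusted p = 0.11), although its arrays did not overlap. With the repeat block it was called lower (adjusted p = 0.026). DNAJA4 (0.10), the neuronal DNAJB2 (-0.16) and the TPR protein DNAJC7 (0.17) did not pass either. DNAJC7 shows how the repeats differ, reading 1394, 1404 and 774 units in CL1-0 and 1583, 1639 and 825 in CL1-5, low on repeat 3 of both lines. With the block it was called higher (adjusted p = 0.015).

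Members of the endoplasmic reticulum changed in both directions, 2 higher and 3 lower of 10 tested (50% called, near the 51.6% of all genes). DNAJC1, a membrane J-protein that faces the lumen and reaches toward the ribosome, read 2071, 1707 and 2361 units in CL1-0 and 821, 601 and 846 in CL1-5. The lines stood clear of each other on every array (-1.43, SE 0.16, adjusted p = 6.7e-05), with 2 further probe sets at -1.12 and -1.33. DNAJB9, a lumenal co-chaperone of BiP induced in the unfolded protein response, averaged 853 ± 17.6 units in CL1-0 and 584 ± 17.6 in CL1-5 (-0.54, SE 0.07), and its 2 other probe sets were lower too.

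The paralogs DNAJB14 and DNAJB12, which sit in the endoplasmic reticulum membrane with their J domains in the cytosol, were called in opposite directions. DNAJB14 read 718, 680 and 971 units in CL1-0 and 363, 317 and 514 in CL1-5 (-0.99, SE 0.19, adjusted p = 0.0022), just inside 2-fold, while its 2 other probe sets gave -1.29 and -1.20. Repeat 3 was the highest array of both lines, and the within-repeat differences were -0.97, -1.09 and -0.91. DNAJB12 averaged 350.6 ± 27.6 units in CL1-0 and 450 ± 7.33 in CL1-5 (0.36, SE 0.09, adjusted p = 0.0082). The call on DNAJB12 was shared by 2 of its 3 other probe sets.

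DNAJC10, a lumenal disulfide reductase that helps clear misfolded proteins, read 873, 838 and 943 units in CL1-0 and 1263, 1280 and 1377 in CL1-5 (0.56, SE 0.08, adjusted p = 3.5e-04). All CL1-5 arrays lay above all CL1-0 arrays, and 1 of 3 other passing probe sets was called, at 0.49. The other lumenal members DNAJB11 (-0.13) and DNAJC3 (0.08) did not pass, nor did DNAJC14 (0.06), DNAJC18 (-0.06) and DNAJC16 (-0.45). DNAJB11 was called lower with the repeat block (adjusted p = 0.047). A DNAJC3 probe set that was not used did pass, at 0.37. DNAJC16 read 378, 300.0 and 524 units in CL1-0 and 264, 193 and 446 in CL1-5, high on repeat 3 of both lines. It was called lower with the repeat block (adjusted p = 3.1e-04) and without CL1-5 repeat 3, where the value was -0.77 (adjusted p = 0.019).

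In the mitochondrial group 2 of 6 tested genes were higher and 2 lower (66.7% called, beside 51.6% of all genes). The compartment groups were drawn up from general knowledge, and the place of DNAJC4, 1 of the 2 higher genes, in this group is uncertain. DNAJC15, also called MCJ, is an inner membrane J-protein tied to the import motor and the respiratory chain. It read 303, 286 and 267 units in CL1-0 and 1435, 1445 and 1298 in CL1-5, a mean 4.88 times as high. Its log2 fold change of 2.26 (SE 0.09, adjusted p = 8.7e-08) was the largest increase of the family. A dimmer probe set, at 47.1 units in CL1-0 and 69.1 in CL1-5, was also called higher but by 0.50 (adjusted p = 0.021 over all probe sets). Both put CL1-5 above CL1-0, and they differ in size.

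DNAJC19, the paralog of DNAJC15 in the import motor, moved the other way. It read 1464, 1317 and 935 units in CL1-0 and 885, 729 and 566 in CL1-5, without overlap (-0.76, SE 0.20, adjusted p = 0.01004). Repeat 3 was the lowest array of both lines, and both probe sets gave -0.76. DNAJA3, the mitochondrial class A protein, fell from 1561 ± 12.6 to 1004 ± 40.7 units (-0.63, SE 0.07, adjusted p = 7.1e-05), and its other probe set gave -0.66.

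DNAJC4 averaged 137 ± 8.09 units in CL1-0 and 171 ± 15 in CL1-5 (0.30, adjusted p = 0.034), with 4 other probe sets that did not pass. Its call was lost without any 1 of CL1-0 repeats 2 and 3 and CL1-5 repeats 1, 2 and 3 (adjusted p of 0.12, 0.057, 0.062, 0.053 and 0.10) and with the mean of its probe sets (0.19). DNAJC11 (-0.19) and DNAJC30 (-0.03) did not pass, and with the repeat block DNAJC11 was called lower (adjusted p = 0.018).

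All 6 members that work on the ribosome, in splicing, on histones or in translation factor modification were called, 2 higher and 4 lower, where 51.6% of all genes were called. DNAJC9, a histone H3-H4 chaperone that recruits HSP70, read 498, 486 and 464 units in CL1-0 and 957, 1110 and 1169 in CL1-5. Every CL1-5 array was above every CL1-0 array (1.14, SE 0.09, adjusted p = 1.1e-05), and another probe set, of the kind that can cross-hybridise, gave 1.39. DNAJC8, a spliceosomal protein, read 569, 483 and 400 units in CL1-0 and 781, 588 and 633 in CL1-5 (0.46, SE 0.15, adjusted p = 0.028). The lowest CL1-5 array was close to the highest CL1-0 array, and the call was lost without CL1-0 repeat 2 or 3 or CL1-5 repeat 1 (adjusted p of 0.073, 0.068 and 0.096). Both other DNAJC8 probe sets were called higher without overlap, at 0.70 and 0.48 (adjusted p of 5.3e-04 and 0.0071 over all probe sets). The second of them is of the kind that can cross-hybridise.

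DNAJC2, which forms the ribosome-associated complex with the HSP70 protein HSPA14, read 1577, 1662 and 1498 units in CL1-0 and 877, 901 and 894 in CL1-5 (-0.82, SE 0.07, adjusted p = 1.8e-05). HSPA14 fell as well (-0.71, SE 0.11). DNAJC21, a ribosome assembly factor, read 669, 828 and 780 units in CL1-0 and 411, 462 and 459 in CL1-5 (-0.76, SE 0.10, adjusted p = 2.5e-04). Of its other tested probe sets, none of which passed, 2 had a positive value, and with the mean over probe sets the call was lost (-0.09, adjusted p = 0.50). DNAJC24, needed to make diphthamide on elongation factor 2, read 214, 172 and 177 units in CL1-0 and 107, 114 and 119 in CL1-5 (-0.69, SE 0.11, adjusted p = 7.2e-04). DNAJC17, another splicing protein, fell by 0.46 (SE 0.11), from 324 ± 37.95 to 233 ± 13.6 units.

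Among the 4 members of vesicles and endosomes, 1 rose and 1 fell (50% called, near the 51.6% of all genes). DNAJC5, the cysteine string protein of secretory vesicles, read 169, 167 and 232 units in CL1-0 and 236, 285 and 353 in CL1-5 (0.60, SE 0.17, adjusted p = 0.017). The lines only just parted, with repeat 3 highest in both, and the call was lost without CL1-0 repeat 1 or 2 (adjusted p of 0.063 and 0.069). Its 2 other probe sets gave larger increases, of 1.05 and 1.19.

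DNAJC6, auxilin, which brings HSC70 to clathrin coats for uncoating, read 172, 171 and 210 units in CL1-0 and 107, 112 and 128 in CL1-5 (-0.64, SE 0.12, adjusted p = 0.0017). GAK, the ubiquitous auxilin with a J domain but another name, fell too (-0.72, SE 0.09). The endosomal DNAJC13 (-0.20) and the small GTPase relative DNAJC27 (-0.10) did not pass, and neither did DNAJC22 (-0.36) and the sperm and cilia protein DNAJB13 (0.28), which were in no compartment group. With the repeat block DNAJC13 and DNAJC22 were called lower (adjusted p of 0.015 and 0.0077) and DNAJB13 higher (adjusted p = 0.027). A dimmer DNAJC27 probe set was called lower at -0.48, and so was a DNAJC22 probe set at -0.79.

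Of the 108 member probe sets 86 passed the filter, of which 23 were called higher, 23 lower and 40 neither, in a fit over all 33832 probe sets that passed, of which 44.3% were called. Of 28 genes with several passing probe sets, 20 had the same outcome on all of them, where not being called counts as an outcome. They include DNAJB1, DNAJC7, DNAJC11, DNAJC13, DNAJC14, DNAJC16, DNAJC18 and DNAJC30, which had no probe set called. Opposite calls were seen in 1 gene, DNAJA2. The same share over all genes was not computed. Probe sets annotated to DNAJB6 together with TMEM135, and to DNAJC25 together with a read-through gene, carry more than 1 symbol and are not members.

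**Figure D3:**
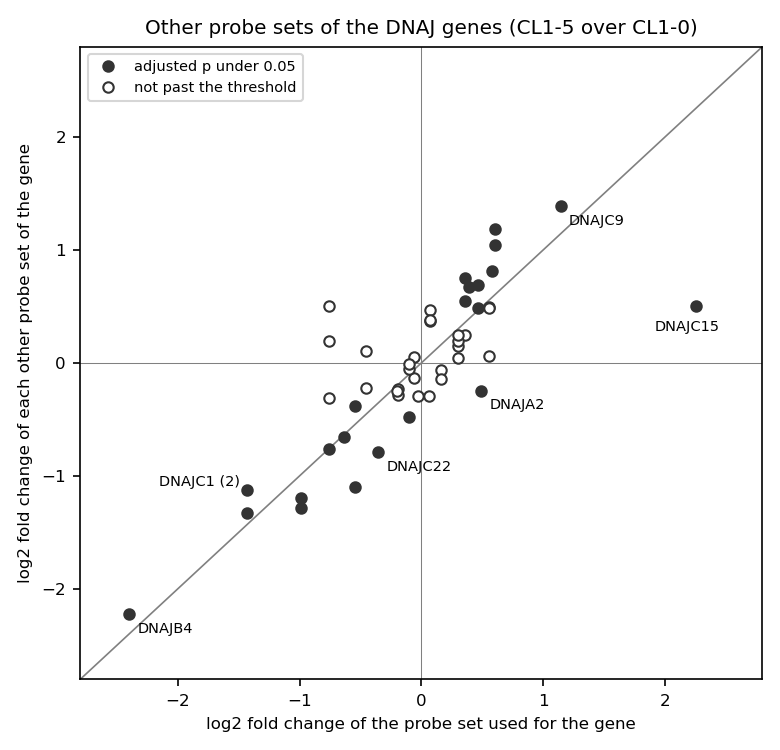
Log2 fold change of each other passing probe set (vertical axis) against that of the probe set used for its gene (horizontal axis), CL1-5 over CL1-0, with the line of equality in grey; filled points passed an adjusted p of 0.05 over all probe sets. The DNAJC15 point lies at 0.50 against 2.26, and DNAJA2 is the filled point with opposite signs, at -0.24 against 0.49.

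The genes next to the 4 members with a change of at least 2-fold were compared, chosen by position among tested protein-coding genes in the order of the RefSeq annotation of GRCh38.p14 and not by value. Distance was not considered, and genes that were not tested may lie between a member and such a neighbour. Beside DNAJC15 on chromosome 13 lie EPSTI1 (5.06, SE 0.10), an interferon-induced gene, and ENOX1 (0.58, SE 0.16), which were both higher in CL1-5. Beside DNAJC1 on chromosome 10 lie MLLT10 (-1.55, SE 0.08) and COMMD3 (-0.51, SE 0.17), both lower. DNAJB4 on chromosome 1 lies between FUBP1 (-0.40, adjusted p = 0.063) and the interferon-induced IFI44L, which was higher (4.22, SE 0.15). DNAJC9 lies on chromosome 10 between FAM149B1 (0.07) and MRPS16 (0.07), neither of which passed. Over all 22 called members, 18 of 44 such neighbours were called in the member's direction, 8 in the other and 18 not at all. Of all genes 51.6% were called. How often adjacent genes share a direction elsewhere was not computed, so these counts say nothing particular about the members, and shared control was not tested.

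Among the tested genes of the HSP70 partners and their exchange factors, more were lower in CL1-5 than higher. Over all genes the gap was smaller, with 23.3% higher and 28.3% lower (51.6% called). The share called was 66.7% of the HSP70 genes and 64.3% of the exchange factors. Of 9 tested HSP70 genes 1 was higher and 5 were lower (median -0.37), with the testis-rich HSPA2 higher (1.56, SE 0.11) and the mitochondrial HSPA9, partner of DNAJA3 and DNAJC19, lower (-0.64, SE 0.06). HSPA5, or BiP, the partner in the endoplasmic reticulum, was lower through the probe set used (-0.37, SE 0.07), but the mean of its probe sets turned the value to 0.17 (adjusted p = 0.058). HSPA12A (-0.61, SE 0.13) also fell. HSPA8, the main constitutive partner in the cytosol, and the heat-inducible HSPA1A are outside these counts, because their probe sets carry several symbols and were not tested. The 4 probe sets annotated to HSPA8 together with small nucleolar RNA genes had means of 2330 to 3277 units in CL1-0 and 3846 to 5666 in CL1-5, and on each of them every CL1-5 array was above every CL1-0 array. The 3 annotated to HSPA1A together with near-identical genes had means of 2140, 1290 and 449 units in CL1-0 and 2649, 1509 and 491 in CL1-5, and the lines overlapped on the first and the last. Of 14 nucleotide exchange factors, which release ADP from HSP70, 1 was higher and 8 lower (median -0.36). These included BAG1 (0.98, SE 0.11), BAG4 (-1.14, SE 0.10), HSPA4L (-1.15, SE 0.18) and the mitochondrial GRPEL2 (-0.76, SE 0.08).

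The J-domain proteins with other names were 1 higher (DNLZ, 0.50) and 2 lower of 4 tested, with SEC63, the translocon partner of BiP, at -1.17 (SE 0.09) and GAK as above. Of 14 genes of the HSP90 system 1 was higher and 7 lower (median -0.30), among them FKBP5 (-1.10, SE 0.08), the mitochondrial TRAP1 (-0.85, SE 0.11), FKBP4 (-0.83, SE 0.13) and UNC45A (-0.53, SE 0.13). The share called was 57.1% here and 75% for the J-domain proteins with other names, beside 51.6% of all genes. Chaperonins were lower in 7 of 10 (70% called, median -0.33), and the other 3 had negative values that did not pass. The genes that fell included CCT6B (-1.37, SE 0.12), CCT6A (-0.71, SE 0.07), the mitochondrial HSPD1 (-0.65, SE 0.09) and CCT4 (-0.39, SE 0.09), whose call was lost with the mean of its probe sets. Small heat shock proteins were lower in 2 of 7 (28.6% called), HSPB1 (-2.12, SE 0.11) and CRYAB (-0.39, SE 0.09). CRYAB was dim, at a mean of 44.0 units in CL1-0 and 32.0 in CL1-5. The 5 not called had means of 31.7 units or less in both lines, so that this list says little beyond HSPB1. HSF1, the transcription factor of the heat shock response, was higher (0.54, SE 0.11), 1 of 3 tested in its list.

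Of 23 genes of the unfolded protein response 5 were higher and 8 lower (median -0.02), a list that includes DNAJB9, DNAJB11 and DNAJC3. That is 56.5% called, near the 51.6% of all genes. The 8 lower include HSPA5, whose direction depends on the probe sets read. EDEM1 rose (1.14, SE 0.09), while DDIT3 (-1.49, SE 0.15) and EIF2AK3 (-0.88, SE 0.09) fell. CALR read 170, 219 and 283 units in CL1-0 and 276, 411 and 427 in CL1-5, so that the lines overlapped, and was called higher (0.72, SE 0.21, adjusted p = 0.019). That call was lost without CL1-0 repeat 1 or 2 or CL1-5 repeat 2 or 3 (adjusted p of 0.070, 0.057, 0.074 and 0.053) and with the mean of its probe sets (0.072). These counts are descriptions, and no list was tested against the rest of the genes.

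**Figure D4:**
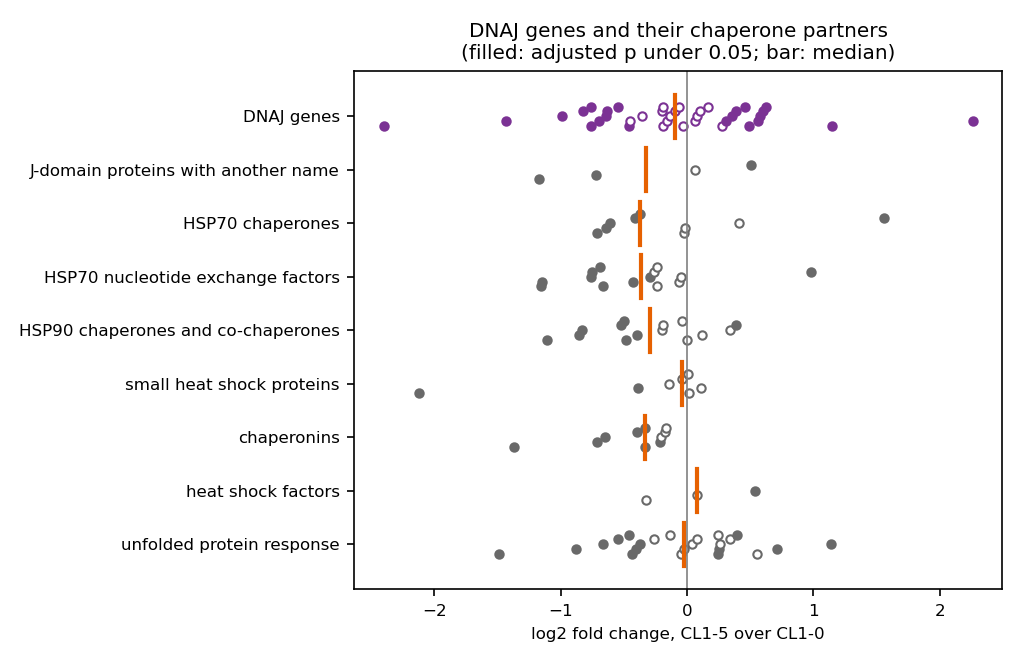
Log2 fold change of CL1-5 over CL1-0 (horizontal axis) for each tested gene of the DNAJ family and of 8 lists of partner genes (rows); filled points passed an adjusted p of 0.05 and orange bars give the list medians. The DNAJ genes lie on both sides of 0 with a median of -0.10, while the HSP70, exchange factor and chaperonin medians lie at -0.37, -0.36 and -0.33. The HSP70 row lacks HSPA8 and HSPA1A, which were not tested. Its median is the value of HSPA5, which turned to 0.17 with the mean of its probe sets.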

How the data were processed

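Probe set intensity values of 6 arrays, linear and brought to a common level, were deposited by the authors; the submitters' processing notes name MAS5, with version and later steps not given in the sources read. Groups and repeat numbers came from the sample titles. Of 54675 probe sets 41091 had 1 gene symbol in the platform annotation, 1801 several and 11721 none, and 62 were controls. Values became log2(signal + 6.85), the constant being their 10th percentile. Probe sets above the 40th percentile of their array on at least 3 arrays passed, and each gene was read through the passing probe set with the highest mean, those with suffix x last. The lines were compared with limma 3.58.1 in R 4.3.3 (lmFit, eBayes with trend), Benjamini-Hochberg over 14828 genes and a threshold of 0.05, after tests on simulated data. P-values measure the spread between 3 repeats, and the number of arrays limits precision. In bulk RNA, fewer cells with a transcript and less RNA per cell cannot be told apart.

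Same-numbered arrays of the lines deviated together from their line means (correlations over genes of 0.475, 0.280 and 0.649), so the repeat number was also fitted as a block, and blocked values are printed where they change a call. Members and lists were chosen with earlier results of these data known. Described array by array were DNAJB4, the 8 largest called increases and decreases without overlap and any gene with opposite probe sets. The array values of DNAJC7, DNAJC16 and CALR were added outside this rule, after they were seen. For partner lists, up to 4 called genes with the largest change were named, plus HSPA8, HSPA5, HSPA9, HSPA1A and HSF1.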

Additional observations from a re-analysis of the deposited data

How the results depend on the processing

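Under the 20 alternatives (added constant, filter, scaling, prior variance, array weights, choice of probe set, block, repeats 1 and 2 alone, a threshold of 0.01 and leaving out each array, with the tested probe sets kept), 16 of the 22 called DNAJ genes kept their direction and call. The exceptions were DNAJA2, DNAJC21, DNAJC4, DNAJC5 and DNAJC8, described above, and DNAJC19, which missed the threshold of 0.01 (adjusted p = 0.01004). The count of lower DNAJ genes went from 11 to 17 with the replicate block, as the share of all genes called rose from 51.6% to 62.7%. DNAJB11, DNAJB13, DNAJC11, DNAJC13 and DNAJC22 were called with the block in addition to DNAJB1, DNAJC7 and DNAJC16, and it ended no call among the DNAJ genes. Repeats 1 and 2 against 3 as a block gave 13 higher and 16 lower, with 61.3% of all genes called. Array weights added DNAJB1, DNAJB2, DNAJB13, DNAJC11, DNAJC16 and DNAJC22 to the calls, with 69.4% of all genes called. Leaving out 1 array gave 8 to 10 higher and 11 to 12 lower DNAJ genes (51.4% to 59.5% of them called, beside 44.1% to 51.5% of all genes). Averaging probe sets turned HSPA5 from -0.37 to 0.17, and the cause was not tested. Low signals limit what can be said of DNAJB13, DNAJC22 and DNAJC27. Their probe sets used had means of 42.5 to 72.3 units per line, above the 40th percentile of the arrays (19.5 to 20.3 units).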
